A study of Homo sapiens with 4 samples.

Results

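The 460 regions described here were stretches of chromatin carrying H3K27ac in control cells that kept H3K27ac over less than 50% of their length after SMARCB1 knockdown. They were selected from the positions of the peaks alone: a peak of the control H3K27ac list on an autosome or chromosome X, at least 2000 and under 8000 bp wide, with more than 0 but less than 50% of its length covered by peaks of the knockdown H3K27ac list. Of 35307 control peaks, 13533 had a width in that range, and the 460 shrunken regions were 3.4% of them. Another 12973 regions were at least 50% covered and are called kept, and 100 had no knockdown peak and are called lost. Because the rule used both H3K27ac lists, the loss of length itself, and every other value that sets these 2 lists against each other, is a description of the selection and not a finding.

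The data came from SK-Hep1, an established human hepatic adenocarcinoma line. Cells carried a stably expressed control short hairpin RNA (shCon) or one against SMARCB1 (shSMARCB1), both under puromycin selection. Chromatin was sheared, precipitated with an antibody to H3K27ac in each of these lines or with an antibody to SMARCB1, and sequenced. Each of the 3 peak lists came from 1 library, so no difference between control and knockdown has a replicate check, and none was tested. The labels do not say which hairpin the cells of the SMARCB1 library carried, and they state neither the hairpin sequence nor the number of clones nor how far SMARCB1 was reduced.

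H3K27ac is acetylation of lysine 27 on histone H3, placed mainly by the acetyltransferases p300 and CBP at active promoters and enhancers. SMARCB1 is a core subunit of the canonical SWI/SNF (BAF) and PBAF remodelling complexes, which slide and evict nucleosomes and so open regulatory DNA, and its loss is the defining lesion of malignant rhabdoid tumours. In cells without SMARCB1 the remaining SWI/SNF complexes are known to bind distal enhancers less well than promoters.

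Printed first are promoters from both sides of the shrinkage, each the 150 bases before a RefSeq transcription start (GRCh38.p14), on the strand of the gene and read 5′ to 3′. Capitals mark matches, on either strand, to any of 8 searched motifs. These were the AP-1 site TGACTCA, the TEAD site GGAATG, the ETS site CCGGAAG, the NF-Y box CCAAT, the TATA box as TATAAA, the E-box CACGTG, the SP/KLF box GGGCGG and the NRF1 site GCGCATGC, none of which contains another. The first set comes from starts that stayed acetylated and lay under a SMARCB1 peak, which 4 genes with a listed start had, and shows the 3 with the most uncovered length: LAMA5, a laminin chain of basement membranes, at chr20:62367313-62367462 on the minus strand, HOXA3, a homeobox transcription factor, at chr7:27150951-27151100 on the minus strand, and DOLPP1, an enzyme of dolichol recycling for protein glycosylation, at chr9:129080961-129081110 on the plus strand.
LAMA5: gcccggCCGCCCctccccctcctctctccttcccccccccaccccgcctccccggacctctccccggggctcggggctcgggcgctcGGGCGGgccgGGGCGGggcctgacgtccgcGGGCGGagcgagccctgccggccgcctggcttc
HOXA3: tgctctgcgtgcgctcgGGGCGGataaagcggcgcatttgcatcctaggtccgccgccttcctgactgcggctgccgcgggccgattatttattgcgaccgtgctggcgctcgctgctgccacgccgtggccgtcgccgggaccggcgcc
DOLPP1: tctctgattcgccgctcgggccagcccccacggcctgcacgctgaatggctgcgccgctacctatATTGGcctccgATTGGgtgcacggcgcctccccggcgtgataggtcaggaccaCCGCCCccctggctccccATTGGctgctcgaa

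The second set holds 3 starts from the part that lost its peak, taken from the regions with the most uncovered length: PDE4A, a cAMP phosphodiesterase, at chr19:10420388-10420537 on the plus strand, TLE3, a Groucho-family corepressor, at chr15:70097918-70098067 on the minus strand, and NFYC, a subunit of the CCAAT-binding factor NF-Y, at chr1:40709216-40709365 on the plus strand.
PDE4A: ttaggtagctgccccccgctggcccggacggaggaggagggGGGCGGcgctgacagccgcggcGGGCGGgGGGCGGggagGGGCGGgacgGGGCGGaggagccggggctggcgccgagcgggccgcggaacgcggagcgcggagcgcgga
TLE3: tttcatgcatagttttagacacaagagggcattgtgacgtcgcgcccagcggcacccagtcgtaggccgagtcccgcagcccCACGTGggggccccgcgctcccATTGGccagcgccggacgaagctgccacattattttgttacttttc
NFYC: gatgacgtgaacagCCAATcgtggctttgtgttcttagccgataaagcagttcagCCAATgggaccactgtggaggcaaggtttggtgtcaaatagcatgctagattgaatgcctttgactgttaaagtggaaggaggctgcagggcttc

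The 6 sequences differ in base composition, though not cleanly by set. Over the full 300-base promoter window (250 bases before to 50 after the start) GC content was 82.7% at LAMA5, 68.7% at DOLPP1 and 60.7% at HOXA3, against 78% at PDE4A, 54.3% at TLE3 and 46.7% at NFYC. The printed stretch held 4 GGGCGG matches at LAMA5 and 5 at PDE4A, while those of TLE3 and NFYC held none. The uncovered starts were not all deep inside the lost part: the PDE4A start lay 14 bp from the retained part of its region, the TLE3 start 99 bp and the NFYC start 1605 bp. Knockdown peaks outside the region were not counted in these distances. The NFYC start was internal to its gene record, in a region 16844 bp from the nearest end of any coding gene.

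The shrunken regions were 2000 to 7613 bp wide, with a median of 2668.5 bp. Knockdown peaks covered a median of 1024.5 bp of them, or 37.5% of a region (interquartile range 29.6% to 45.1%), and left a median of 1698 bp uncovered. Summed over the 460 regions, 888 of 1405 kb had no knockdown peak. Kept regions were of similar width, with a median of 2924 bp, but had a median of 320 bp uncovered. The limit of 50% cut through a continuous distribution, since 207 shrunken regions were at least 40% covered and only 81 were under 25%. Just inside it were regions near FARP2 (49.957% covered), SIK2 (49.970%) and NOMO1 (49.978%), and just outside it regions near TRIM27 (50%), DDAH1 (50.03%) and LRRFIP2 (50.08%). At a limit of 40% the same rule took 253 regions. With every knockdown peak lengthened by 250 bp at each end, and control regions left as they were, it took 158. Such lengthening can only raise coverage.

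**Figure D1:**
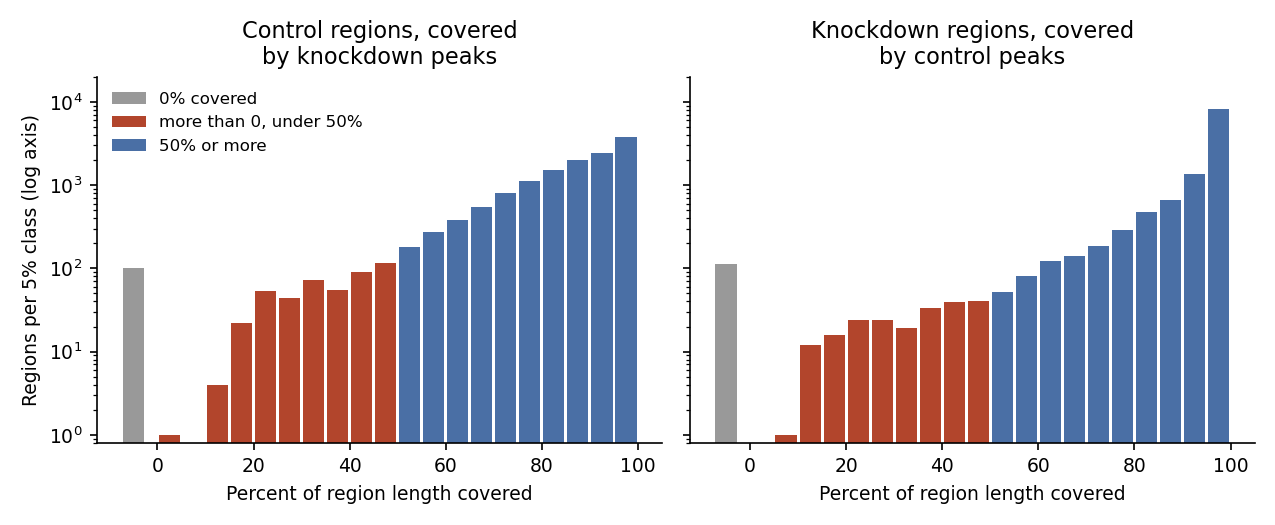
Percent of each region's length covered by peaks of the other H3K27ac library, as the number of regions per 5% class on a log axis, for control regions (left) and knockdown regions (right) of 2000 to under 8000 bp. Red bars are regions more than 0 but less than 50% covered, blue bars regions at least 50% covered, and the grey bar regions with no peak of the other library. On the left the counts climb without a gap across the 50% limit, from 116 regions in the class below it to 178 in the class above.

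The same rule applied the other way found fewer regions. Of 11999 knockdown regions of the same widths, 208 (1.73%) were more than 0 but less than 50% covered by control peaks, and 112 had no control peak, so regions that shrank were 2.21 times as many as regions that spread. The control library was the deeper one, with 13235203 tags against 10203310 (1.30 times as many), and its fragment length was 190 bp against 158 bp. The share of tags in peaks was alike, at 53.78% in control and 55.07% in knockdown cells. The part of depth and fragment length in the excess of shrinking regions was not tested.

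Most shrunken regions lost their edges and kept 1 short piece. The knockdown library had 1 peak in 390 of the 460 regions (84.8%), 2 peaks in 63 and 3 peaks in 7. Neither edge was covered in 389 regions (84.6%, 95% Wilson interval 81.0% to 87.6%), against 51.4% of kept regions. The 536 knockdown peaks concerned had a median width of 891.5 bp, against 2580 bp for those over kept regions, and 104 of them (19.4%) had 501 bp, the narrowest width in the knockdown list. The piece that remained was not always central: the midpoint was covered in 231 regions (50.2%). It was covered in 98.7% of kept regions, but 95.3% of these had 1 knockdown peak. A single piece over more than 50% of a region must cover its midpoint, so the rule largely fixed that contrast. The contrasts in edges and peak width are tied to the same 50% limit. These intervals, like the others given here, cover only the counting of regions and not the variation between libraries.

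**Figure D2:**
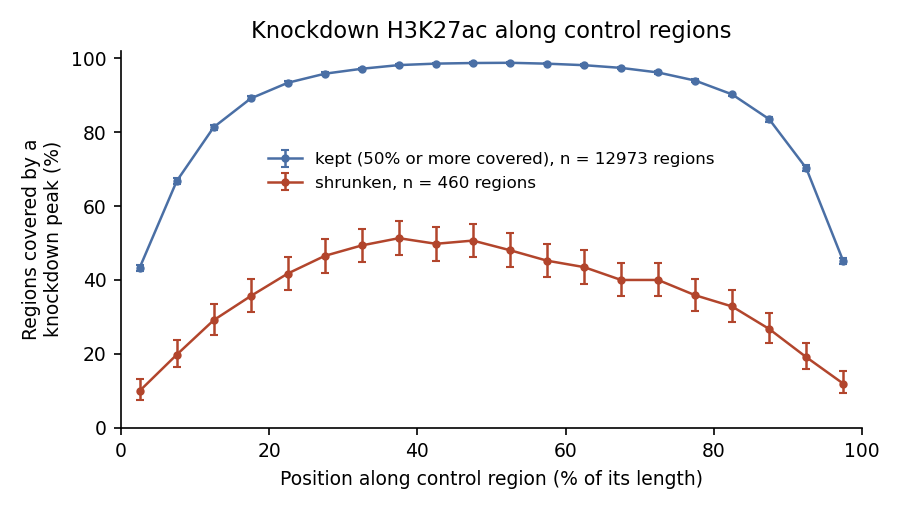
Share of regions covered by a knockdown peak in each of 20 equal bins along the control region, for 460 shrunken and 12973 kept regions, with 95% Wilson intervals as bars. Coverage of shrunken regions lies near 10% at the edges and reaches 51.3% left of the centre, while kept regions go from 43.3% at the left edge to 98.7% in the centre.

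The regions lay later in the control list than kept regions did. The order of the deposited rows is not explained in the sources used here, but it followed width (Spearman rho −0.92 over 35307 control peaks, across peaks of 1 library), with wide peaks first. Shrunken regions lay at a median of 46.7% of the way down the list, against 22.0% for kept and 56.5% for lost regions. The share that shrank was 0.189% in the first 10% of rows, 3.68% between 30% and 40%, and 17.0% between 50% and 60%. This was not width alone. Among regions of 2000 to under 2500 bp, shrunken ones lay at a median of 53.0% and kept ones at 32.3%, and among those of 5000 bp or more at 23.5% and 7.28%. Kept regions weighted to the list positions of the shrunken ones are therefore given beside the shares of regions with a SMARCB1 peak, a gene start, a gene record or a near neighbour, but not beside values per SMARCB1 peak or per promoter, which were not weighted.

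SMARCB1 peaks, which the rule did not use, overlapped few of the shrunken regions. Only 19 of 460 (4.13%, 2.66% to 6.36%) had one, against 1818 of 12973 kept regions (14.0%, 13.4% to 14.6%) and 3 of 100 lost regions. That gap went with place in the list. When kept regions were weighted to the list positions of the shrunken ones their share was 4.16%, so no gap remained. It was 3.01% when weighted by width as well, below the share of shrunken regions, while weighting by width alone left it at 13.7%. Between 10% and 20% of the list 2 of 20 shrunken and 18.9% of kept regions had a SMARCB1 peak, whereas between 40% and 50% it was 9 of 145 shrunken (6.21%, 3.30% to 11.4%) and 2.54% of kept regions (1.87% to 3.46%). The share among shrunken regions was 8.31% when knockdown peaks under 1000 bp were left out, and 2.37% at a limit of 40%. Kept regions, not weighted, stayed above it in both.

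The 20 SMARCB1 peaks in question were mostly away from promoters in the authors' annotation. It placed 7 in introns, 4 in exons, 4 between genes, 4 at promoters and 1 in a 5′ UTR, so promoters held 20% of them against 44.3% of the 1862 SMARCB1 peaks over kept regions. These classes do not exclude a listed coding start, since the peaks classed as intronic at HOXA3 and NMT2 lay over one. The deposited values of the 20 peaks, whose unit is not stated, had a median of 12.95, against 12.7 for the peaks over kept regions. The highest was 328.5 for a peak that reached into a shrunken region over ACTB, the cytoplasmic beta-actin gene, with its midpoint outside that region. Of 18 SMARCB1 midpoints inside shrunken regions, 13 (72.2%, 49.1% to 87.5%) lay in the retained part, against 9 of 18 for the same positions mirrored about each region's centre. Each mirrored position is paired with a midpoint in the same region, and the interval does not take that pairing into account. The difference was not tested, and nothing is concluded from these 18 midpoints.

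The SMARCB1-bound regions with the most uncovered length follow by name. At ITGA3, the integrin alpha-3 chain that binds laminin, a region of 3523 bp kept 568 bp, and its SMARCB1 peak lay in the part without knockdown H3K27ac. Inside ANXA2, which encodes a calcium-dependent membrane-binding annexin, a region of 3906 bp kept 1304 bp and was touched by 2 SMARCB1 peaks, of which 1 had its midpoint inside, in the uncovered part. At LAMA5 a region of 3940 bp kept 1869 bp, the start and the SMARCB1 peak both in the kept piece. TLE3 kept 2360 of 5541 bp, with the SMARCB1 peak in the second of its 2 kept pieces. The other 4 of the 8 chosen by this rule were near MYBL1 (46.6% covered), SH2D6 (28.0%), MDGA1 (46.9%) and CXADR (45.7%), a virus receptor and junction protein.

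**Figure D3:**
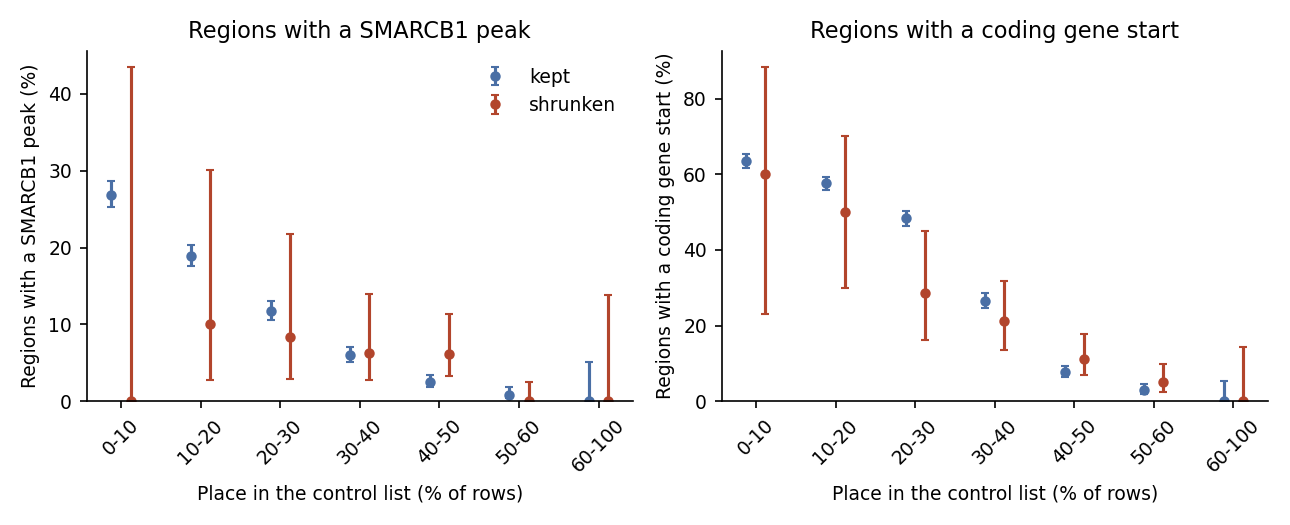
Share of regions with a SMARCB1 peak (left) or a coding gene start (right) by place in the control list, for shrunken (red) and kept (blue) regions, with 95% Wilson intervals as bars. Both shares fall down the list in kept regions, and the intervals of shrunken and kept regions overlap in every class of list position except for gene starts between 20% and 30%, where shrunken regions are at 28.6% and kept regions at 48.4%.

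Fewer shrunken than kept regions held a gene start, and here too the gap went with place in the list. A coding gene start from the RefSeq promoter table, which lists starts for 15812 of 19821 coding genes and none on chromosome 8, lay in 61 of 431 shrunken regions outside that chromosome (14.2%, 11.2% to 17.8%), against 43.0% of kept and 4 of 92 lost regions. Weighted to the list positions of the shrunken regions, kept regions had 15.3%, weighted by width 44.0%, and weighted by both 9.40%. Between 20% and 30% of the list 10 of 35 shrunken regions held a start (28.6%, 16.3% to 45.1%) and 48.4% of kept ones did (46.5% to 50.3%). The share among shrunken regions was 8.40% at a limit of 40% and 6.80% with lengthened knockdown peaks. The median distance to the nearest end of a coding gene was 20567.5 bp for shrunken, 22044 bp for lost and 2723 bp for kept regions. More than 50 kb from any lay 147 shrunken regions (32.0%), 37% of lost and 19.4% of kept regions, and kept regions weighted by list position had 37.2%. A coding gene record was overlapped by 303 shrunken regions (65.9%), 63% of lost and 75.3% of kept regions. Weighted by list position kept regions had 61.4%, so the direction of both comparisons turned with the weighting.

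Where a shrunken region did hold a start, the start usually stayed acetylated. Of 76 listed starts, which belong to 63 genes and include several per gene, 55 (72.4%, 61.4% to 81.2%) lay in the retained part, although knockdown peaks covered on average 41.7% of these regions. The positions mirrored about each region's centre lay in the retained part for 29 of 76 (38.2%, 28.1% to 49.4%). This depended on how much was lost. At a limit of 40% covered 12 of 26 starts (46.2%) and 8 of 26 mirrored positions (30.8%) were in the retained part, and with knockdown peaks lengthened by 250 bp it was 6 of 12 for both. The 21 starts in the uncovered part lay 12 to 1605 bp from the retained part of the same region, with a median of 703 bp, and 5 of them were within 100 bp. They belonged, besides PDE4A, TLE3 and NFYC, to genes such as SMAD3, the receptor-regulated transducer of TGF-beta signals, CDK15, LIMCH1 and the acetylcholinesterase gene ACHE.

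Promoters on the 2 sides differed in median base composition, with ranges that overlapped widely. Median GC content over 300 bases was 66.3% for the 55 retained starts, 52.7% for the 21 uncovered ones, 66.7% for 8135 starts in kept regions and 62.3% for all 22132 listed starts. It ranged from 39% to 83% in retained and from 35% to 78.7% in uncovered promoters. The CpG observed-to-expected ratio was above 0.6 in 72.7%, 57.1%, 87.7% and 62.2% of them. GGGCGG was found in 72.7% of retained (59.8% to 82.7%) and 38.1% of uncovered (20.8% to 59.1%) promoters, and in 56.3% of all listed promoters. CCGGAAG was in 10.9% of retained and 0 of 21 uncovered promoters against 12.8% of all. CCAAT was in 40% and 52.4% against 34.6%, and CACGTG in 5.45% and 14.3% against 8.34%. The others were TGACTCA (1.82% and 9.52% against 4.01%), GGAATG (14.5% and 14.3% against 12.2%), TATAAA (5.45% and 9.52% against 9.46%) and GCGCATGC (3.64% and 0% against 3.74%). Except for GGGCGG in retained promoters, the share of all listed promoters lay within the interval of both groups for each motif. Several starts of 1 gene share most of this sequence, so the counts are not of independent promoters.

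The shrunken regions with a start and the largest uncovered length lay at genes of several kinds. LTBP3, which anchors latent TGF-beta in the extracellular matrix, lay in a region of 6910 bp (chr11:65554612-65561521) that kept 3189 bp around both of its listed starts. PDE4A kept 1754 of 5363 bp (chr19:10415876-10421238) in 3 pieces, with 1 start inside a piece and the other just beside one. IL1B, the inflammatory cytokine interleukin-1 beta, kept 1365 of 4731 bp (chr2:112833050-112837780), all at the end that holds its start, and no other control region of the width range lay within 10 kb of it. SCD, the desaturase that makes monounsaturated fatty acids, kept 2245 of 5213 bp (chr10:100345516-100350728), including its start. At LTBP3, IL1B and SCD every listed start stayed under a knockdown peak.

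Others of that group followed the same layout with 2 exceptions. SPC24, a kinetochore component, kept 2590 of 5915 bp, the shared region of the divergent pair MBTD1 and UTP18 kept 2582 of 5824 bp, and TMEM259 kept 2102 of 5110 bp, each with its start inside the kept piece. MELTF (2651 of 5507 bp) and FILIP1L (2616 of 5248 bp) did so too. The FILIP1L start was internal to its gene record, in a region 42936 bp from the nearest coding gene end. CD74, the invariant chain of MHC class II molecules, kept 1800 of 4262 bp in 2 pieces, with its start just inside the edge of 1 of them. The exceptions were TLE3, with 1 of its 2 starts in a gap, and NFYC, where a single 501 bp piece remained of 3171 bp (15.8%), away from the start.

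**Figure D4:**
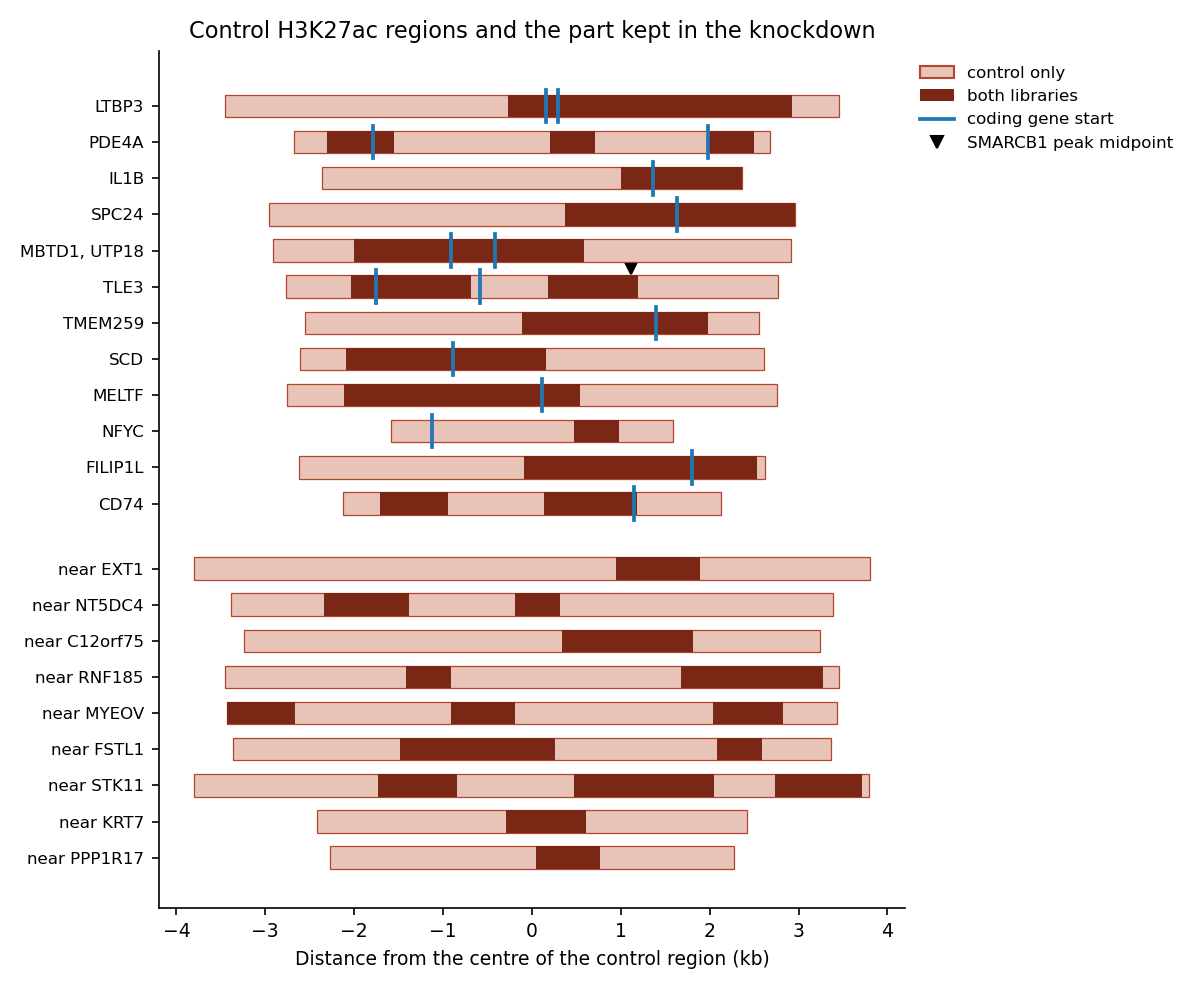
The 12 shrunken regions with a coding gene start (upper group) and 9 of the 10 without one (lower group) that had the most uncovered length, drawn to scale around the centre of the control region in kb. Light bars are the control region, dark bars the part also under a knockdown peak, blue lines the listed gene starts and the triangle the midpoint of a SMARCB1 peak. In the upper group most starts fall in a dark part, the clear exception being NFYC, while in the lower group short dark pieces lie within long light bars.

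By share of length, the most reduced start-holding regions after NFYC were at LIMCH1, an actomyosin regulator (501 of 2130 bp, 23.5%), RTBDN (25.9%), IL1B (28.9%), the neighbours LRRIQ4 and LRRC34 (29.8%), DNMBP, a scaffold with exchange activity for the small GTPase CDC42 (30.2%), NCR3LG1, a ligand of natural killer cells (31.1%), and HEY2, a Notch target repressor (634 of 2012 bp, 31.5%). The regions at NFYC, LIMCH1 and DNMBP lay 16844, 160349 and 36704 bp from the nearest end of any coding gene record. Their listed starts were therefore internal starts, not those at the outer end of the gene record. The lowest coverage of any shrunken region was at MED15, a Mediator subunit, where a knockdown peak reached only 8 bp (0.261%) into a region of 3067 bp. It was the only region under 10% covered.

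The largest losses of all were distal. Inside EXT1, a glycosyltransferase of heparan sulfate synthesis, a region of 7613 bp kept 937 bp (12.3%). Near NT5DC4, in the CKAP2L gene, 1467 of 6778 bp remained, near C12orf75 1481 of 6488 bp, and near RNF185 2099 of 6911 bp. In FSTL1, a secreted glycoprotein of the follistatin family, 2249 of 6732 bp remained, and near KRT7, a keratin of simple epithelia whose gene end was 15685 bp away, 910 of 4832 bp. The region near MYEOV kept 2260 of 6862 bp, that near STK11 3453 of 7593 bp, and a region in PDE1C nearest to PPP1R17 719 of 4549 bp. All of these apart from STK11 kept less than 35% of their length in the knockdown list.

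Shrunken regions had other shrunken regions near them more often than kept regions did. Of the 460, 99 (21.5%, 18.0% to 25.5%) lay within 100 kb of another one, while 1098 kept regions (8.46%) lay that close to a shrunken region, or 8.29% when weighted by list position. Within 50 kb it was 68 (14.8%) and 5.20%. Lost regions had 22% and 18%. These positions come from the rule's own lists and are given as a description. Control peaks were also denser around shrunken regions, with a mean of 11287 bp from 10 to 50 kb against 6630 bp around kept regions. The neighbour shares were not weighted for that density. The longest run was in EXT1, where 6 of 11 control regions of the width range had shrunk and 18385 of their 25156 bp were uncovered. A run of 5 lay in the gene-poor stretch whose nearest coding gene is MYC, the growth-promoting transcription factor, with 9245 of 13883 bp uncovered, and a run of 4 on chromosome 2 at chr2:42948855-43026175 with 10461 of 17548 bp uncovered. Runs of 3 were at SPARC and ATOX1, BCAS1, KCMF1, NEDD4L, ITGA3 and SGCA, SMAD3, MYEOV and KCNMA1. Of 286 genes overlapped, 22 held at least 2 shrunken regions. Among them were ITGA3 (2 of 2 regions of the width range), SPARC (2 of 3), TRIO (2 of 3) and SMAD3 (3 of 6). Others held many regions of which few shrank, such as KCNMA1 (3 of 14) and FRMD4A (2 of 14). The like share of genes for kept regions is not given. Across chromosomes the share that shrank ran from 1.87% on chromosome 17 (14 of 749) to 5.29% on chromosome 2 (57 of 1077).

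H3K27ac around the regions was also listed on fewer bases in the knockdown library. From 1 to 10 kb outside the shrunken regions, control peaks covered a mean of 3213 bp and knockdown peaks 2368 bp, a ratio of 0.737, with the knockdown length shorter at 290 regions, longer at 28 and equal at 142. Around kept regions the ratio was 0.865, and 0.889 when these were weighted to the list positions and to the control length found around the shrunken regions. The ratio was 0.803 from 10 to 50 kb and 0.817 from 50 to 250 kb, against 0.878 and 0.875 around kept regions. Around lost regions the ratio was lower still, at 0.720, 0.763 and 0.804 from the nearest range to the farthest. Around the 208 knockdown regions that spread it was 1.31 from 1 to 10 kb, 1.12 from 10 to 50 kb and 0.978 from 50 to 250 kb. These values come from the same pair of libraries as the rule, and shrunken neighbours count in each other's surroundings.

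**Figure D5:**
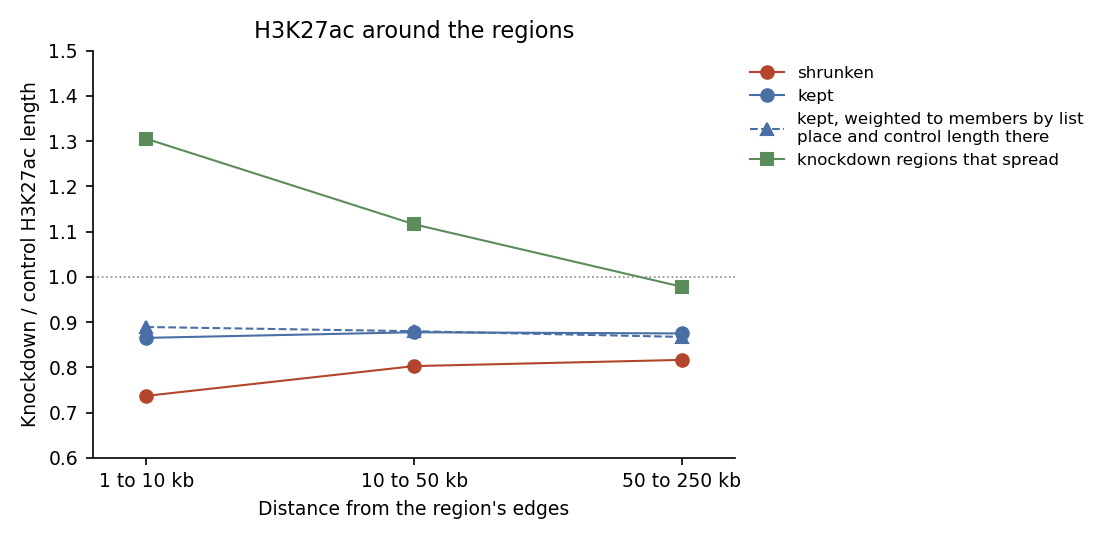
Summed length of knockdown H3K27ac peaks divided by that of control peaks in 3 distance ranges outside the regions, for shrunken, kept and weighted kept control regions and for knockdown regions that spread; the dotted line marks equal length. Of the sets drawn, shrunken regions lie lowest at every distance (0.737, 0.803 and 0.817) and the regions that spread highest (1.31, 1.12 and 0.978), each closest to the kept regions in the farthest range. Lost regions, which are not drawn, were lower than shrunken ones at every distance.

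The gene lists were read against all coding genes. With a start in a control region of the width range, 63 of 6143 genes (1.03%) had it in a shrunken one, and with such a region within 10 kb, 378 of 10121 (3.73%) had a shrunken one there. For the 558 genes of 21 lists these shares were 9 of 291 (3.09%) and 30 of 440 (6.82%). The 9 with a start inside were LTBP3 and SMAD3 of 15 TGF-beta and BMP genes, LAMA5 of 17 adhesion genes, IL1B of 14 cytokine and NF-kB genes, SCD of 14 lipid genes, the Polycomb-associated PHF19 of 15, the actin-severing gelsolin gene GSN of 23, WNT5A, a non-canonical WNT ligand, of 9, and HOXA3 of 5. WNT5A kept 1733 of 4194 bp, GSN 916 of 2636 bp, PHF19 1359 of 3155 bp and the SMAD3 region with a start 825 of 2315 bp.

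Genes of integrins, laminins and focal adhesions, which tie the cytoskeleton to the matrix, had a shrunken region within 10 kb in 7 of 27 cases (25.9%), the highest share of the 21 lists. Among them ITGA3 kept 16.1% and 33.5% of 2 regions. The integrin beta-3 gene ITGB3 kept 501 of 2718 bp (18.4%), and no other control region of the width range lay within 10 kb of that gene. ACTN4, an actin crosslinker, kept 876 of 4273 bp (20.5%). PXN (45.7%), LAMA5 (47.4%) and VCL (49.8%) were nearer the limit. Apart from LAMA5, these named genes had regions without a listed start.

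Every other list had at most 3 such genes, so its share rests on a small count, and 3.73% of all coding genes had one. YAP and TEAD genes had 3 of 18 (16.7%: CRIM1, FSTL1 and TEAD1) and WNT and Notch genes 3 of 17 (17.6%: LEF1, WNT5A and WNT5B). HOX genes had 3 of 16 (18.8%) through a single region, and actin and contractility genes 3 of 27 (11.1%: ACTB, CNN2 and GSN). Mesenchymal genes had 2 of 21 (COL1A1 and SPARC, a matrix glycoprotein that kept 23.6% and 33.9% of 2 regions), TGF-beta and BMP genes 2 of 20, and glycolysis and hypoxia genes 2 of 25 (ENO1 and PFKFB3). MET, SLC7A5, IL1B, PHF19 and SCD were single members of their lists. None was found near the 19 AP-1 and immediate early genes, the 11 epithelial, 14 NRF2 target, 23 SWI/SNF, 22 nucleoporin, 22 acetylation, 23 cell cycle or 39 ribosomal protein genes with a region of the width range within 10 kb. SMARCB1 itself had a kept region, 1904 of 2341 bp covered (81.3%), which says nothing of its transcript level.

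H3K27ac peaks within 1 kb of cell type markers were also counted. Peaks lay at 4 of 14 hepatocyte markers in control and 5 of 14 in knockdown cells. SERPINA1, CEBPA, TF and CPS1 had one in both and FOXA2 in the knockdown library alone. The other hepatocyte markers, among them ALB, APOA1 and HNF4A, had none in either. Peaks lay at 3 of 14 endothelial markers in both libraries (SOX18, ROBO4 and ESAM). Leukocyte markers had 4 of 12 in each: CD14 and SPI1 in both, CD8A and CSF1R in control alone, CD4 and CD79A in knockdown alone. Keratinocyte markers had 2 and 3 of 9, SFN and PERP in both and KRT5 in knockdown alone. The share of all coding genes with such a peak is not given, so these counts do not settle cell identity. A shrunken region, with a SMARCB1 peak, lay over the endothelial marker SOX18 (1044 of 2092 bp kept).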

How the data were processed

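Peak positions from 3 libraries of SK-Hep1 cells were used, 1 per group; the input library was not analysed here. Reads were aligned and processed with Bowtie2 and HOMER on hg38, per the submitters' processing notes. Both H3K27ac lists were called against an input as HOMER histone regions, at 4-fold over input and over the local 10000 bp, per the file headers. The deposited SMARCB1 table gives a score per peak whose unit is not stated, used only to describe peaks. Coverage was counted in bases with Python 3.11.15, NumPy 2.4.6 and pandas 2.3.3 and checked with bedtools 2.31.1, which also gave 460 regions. SciPy 1.17.1 and matplotlib 3.10.9 gave correlations and plots. Gene ends and promoters are RefSeq (GRCh38.p14); 153 gene records outside the main chromosomes were left out. Coverage code was tested on 5000 simulated regions, all classed as simulated. Intervals are 95% Wilson intervals.

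The members and gene lists were chosen with earlier results of these data known. Named are the 12 start-holding regions with the largest uncovered length, the 8 with the lowest coverage, the 8 SMARCB1-bound and the 10 startless regions with the largest uncovered length, list genes with a start inside, and regions beside the limit; other names (runs of neighbours, list genes within 10 kb, MED15, ACTB, SOX18, genes of uncovered starts) were chosen after their values were seen. The weighting of kept regions, mirrored positions, neighbours and surroundings were added after seeing the data. Results at 2 of the genes the rules name or count are not reported here. Alternatives were other limits, widths, peak edges, gaps, narrow peaks, and definitions of SMARCB1 overlap and gene start.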

Additional observations from a re-analysis of the deposited data

How the results depend on the processing

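No paired analysis was possible because each group had 1 library. Of 99 alternative values, 60 stayed within the interval of the reported value or within 1.5 times of a count and 39 did not. The number of shrunken regions was 253 at a limit of 40% covered, 910 at 60%, 166 for widths of at least 3000 bp, 301 without peaks under 1000 bp and 158 with peaks lengthened by 250 bp, and the number of knockdown regions that spread was 129, 341, 85, 108 and 93 in the same order, the lower of the pair each time. With gaps of up to 1000 bp filled both stayed within 1.5 times. Lengthening, gap filling and leaving out narrow peaks applied only to the covering list, so the measured regions kept their own edges. The share of shrunken regions with a SMARCB1 peak was 2.37% at 40%, 8.31% without narrow peaks and 2.53% with lengthened peaks. The share with a coding gene start was 8.40% at 40%, 18.1% at 60%, 20.2% without narrow peaks and 6.80% with lengthened peaks. Kept regions had the higher share of both under each of these limits, widths, peak edges and definitions. Weighted by width and list position they had the lower share, 3.01% with a SMARCB1 peak and 9.40% with a start. The share of starts in the retained part was 46.2% at 40%, 85.4% at 60%, 87.1% for widths of at least 3000 bp and 50% with lengthened peaks, where mirrored positions also gave 50%. The midpoint was covered in 35.2% at 40%, 70.7% at 60% and 44.9% with lengthened peaks. Other limits, widths and peak edges change which regions are selected, while other definitions of SMARCB1 overlap or gene start keep the same regions; no other cause was tested. The knockdown library had fewer tags, and how that moved peak edges was not tested.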
